A study of Mus musculus with 4 samples.

Results

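The genes described here are 34 genes of the skeletal muscle sarcomere, of its calcium handling and of its energy supply, with 1 regulator of muscle fate, measured in mouse trachea and oviduct taken whole. They were taken by name, with earlier results of these data known, so that the counts below describe the list and test nothing. All 34 were found among the 30560 genes that the arrays could name, each with 1 probe set. RNA was read on 4 Affymetrix arrays, 1 per group, from mice of a mixed C57BL/6 x 129 background. The groups were trachea of male mice labelled null for GEMC1 and of male wild-type (WT) mice, both aged 39 days, and oviduct of female mice labelled GEMC1 null and of female WT mice, both aged 65 days. GEMC1, current symbol Gmnc, is a nuclear protein that acts at the start of multiciliated cell formation. The sources used here do not say which part of the gene was removed, whether it was removed in every cell, or whether tissue of several animals was pooled.

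A skeletal muscle fibre contracts through sarcomeres, repeating units in which thick filaments of myosin pull on thin filaments of actin anchored in Z-discs. An action potential opens calcium release channels of the sarcoplasmic reticulum, calcium binds troponin on the thin filament, and a calcium pump ends the contraction. Fast, slow and developmental fibres build this machine from different genes of the same families, so that the isoforms present describe the fibre. The wall of the trachea itself is known for smooth muscle and cartilage; skeletal muscle lies beside it, in the larynx, the oesophagus and the neck. The oviduct wall is likewise known for smooth muscle.

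With 1 array per group, no difference between 2 arrays carries a replicate check, an error or a p-value, and the number of arrays limits the precision of every value. Levels are log2 RMA signals, where RMA is the standard background correction, normalization and probe summary for these arrays, and a level was compared between arrays for the same gene only. A difference of 1 is 2-fold. The median signal of the negative-control probe sets was 5.74 on the null-labelled trachea array, 5.98 on the WT trachea array, 5.79 on the null-labelled oviduct array and 5.77 on the WT oviduct array. Where the dimmer array of a pair lay below that median, the fold is given as "at least" and was taken against the median, called background here. Gmnc, the targeted gene, stood at 4.63 on the null-labelled trachea array, against 5.90 on the WT trachea array, and at 8.86 on the null-labelled oviduct array, against 6.11 on the WT oviduct array. Both trachea levels of Gmnc lay below background and say nothing about the label. In oviduct Gmnc was higher under the null label. With the removed part of the gene not known, that value cannot decide about the label, so the arrays are called null-labelled. Multiciliated cell genes ran as the labels say on the oviduct arrays, where all 10 fell by 2-fold or more under the null label (median difference -4.15). All 10 fell likewise on the trachea arrays (median -3.79). Other cell types moved there as well: airway secretory genes were lower in 9 of 9 (median -5.45) and squamous epithelium genes higher in 9 of 11. The trachea fall was thus not particular to multiciliated cells and cannot decide about the trachea label. In a whole tissue, fewer cells of a type and less RNA per cell cannot be told apart.

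The muscle genes were far higher on the null-labelled trachea array than on the WT trachea array, and close to equal on the oviduct arrays. In trachea 30 of the 34 genes were at least 2-fold higher on the null-labelled array, 2 were at least 2-fold lower and 2 lay between. Among the 20056 genes that reached the array median on at least 1 trachea array, 6.34% were at least 2-fold higher and 7.71% at least 2-fold lower. All 34 muscle genes passed that level filter, 9 of them through the null-labelled array alone. The median difference of the 34 genes was 4.18, beside 0.03 over all genes that passed, and 21 of the 34 had a difference of 4 or more. With levels below background raised to it, the median was 4.13 and 19 had a difference of 4 or more. Of the 10 largest measured differences above 0 in trachea 5 belonged to these genes, Myot, Myh1, Myh8, Neb and Atp2a1, and the other 5 were Tgm3, Krtdap, Serpinb3a, Krt13 and Krt4, genes of squamous epithelium. Of these 10, all but Atp2a1, Krt13 and Krt4 were below background on the WT array, so that their order is not known. With levels below background raised to it, the same 5 muscle genes were among the 10 largest, Serpinb3a gave way to Mt4, and 24 of the 34 were among the 100 largest. On the null-labelled array 28 of the 34 genes exceeded the 95th percentile of the negative controls (8.70 there), against 0 on the WT trachea array (8.87), 0 on the null-labelled oviduct array and 0 on the WT oviduct array. With levels under that percentile raised to it, the median trachea difference was 2.31.

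**Figure D1:**
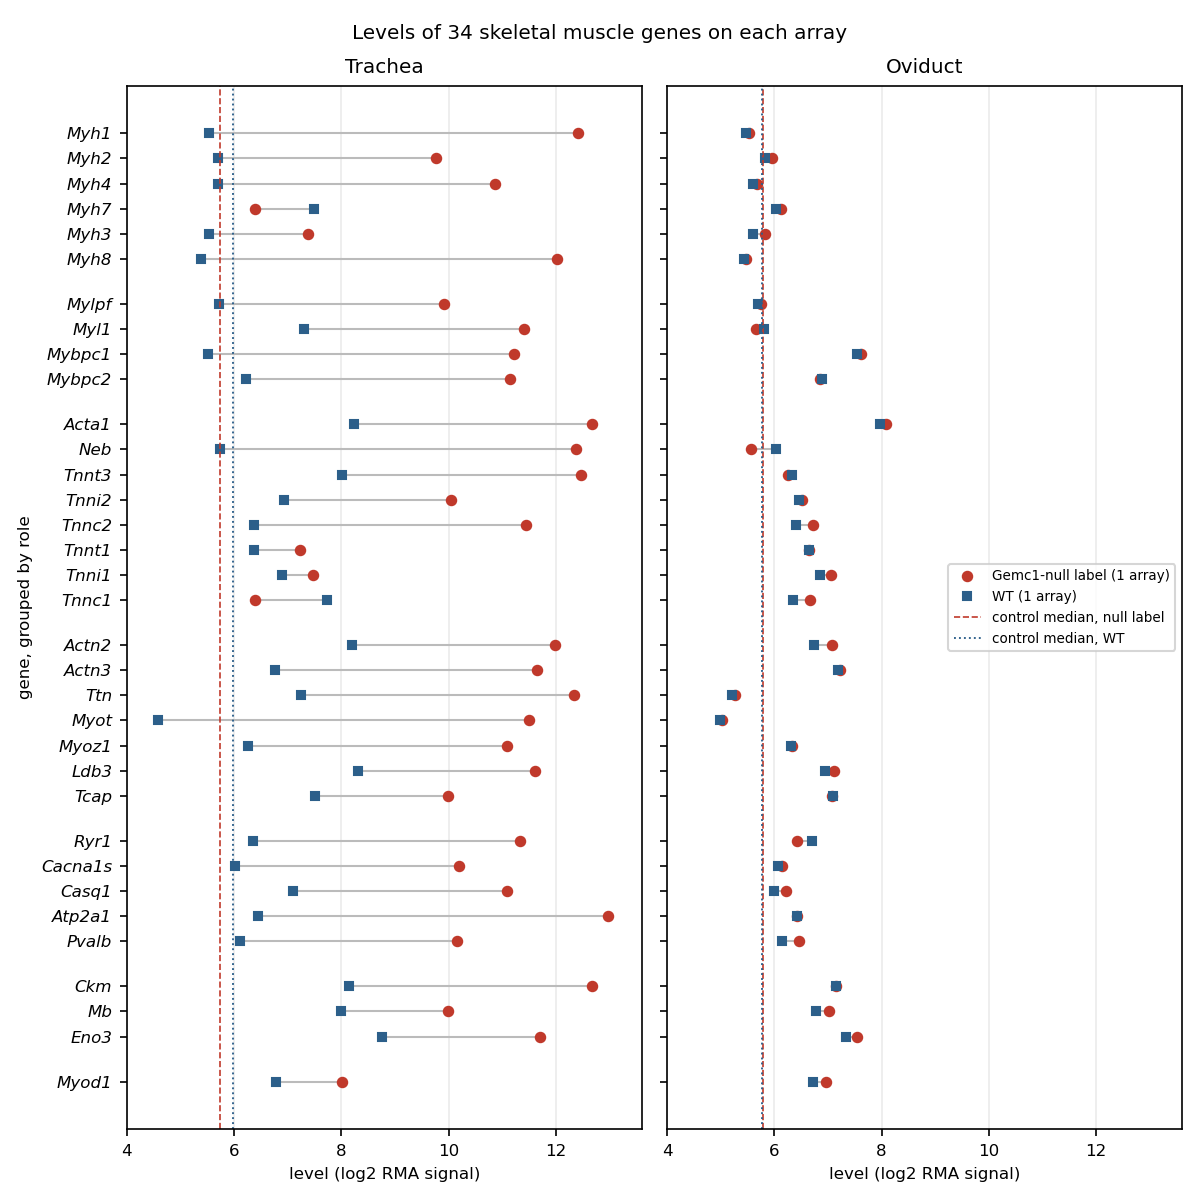
Level of each of the 34 muscle genes in log2 RMA signal (horizontal axis) on the 2 trachea arrays (left panel) and the 2 oviduct arrays (right panel), with 1 point per array and genes grouped by role. Dashed and dotted lines are the negative-control medians. In trachea 32 of 34 red points (labelled Gemc1-null) lie to the right of the blue squares (WT), Myh7 and Tnnc1 being the exceptions, and in oviduct the points nearly coincide.

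**Figure D2:**
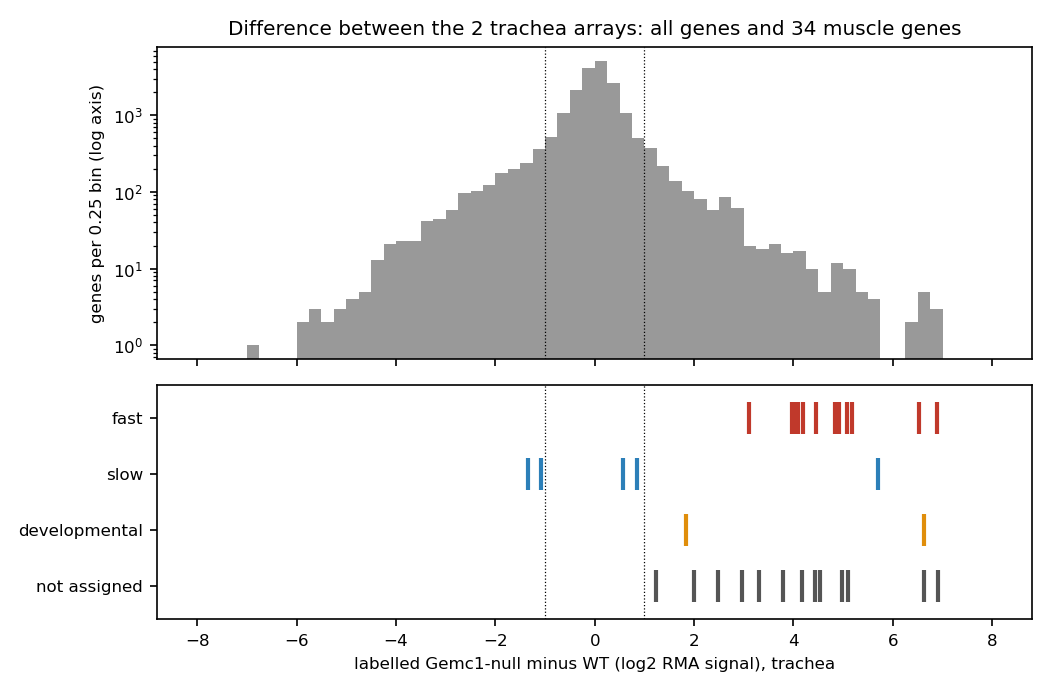
Upper panel, number of genes (log axis) by the difference between the null-labelled trachea array and the WT trachea array, in log2 RMA signal, for the 20056 genes that passed the level filter. Lower panel, the same difference for each of the 34 muscle genes by fibre class, 1 stroke per gene, as measured, also below background, with dotted lines at 2-fold; all 14 fast genes lie above 3, and the slow genes range from -1.35 to 5.70.

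Myosin heavy chains are the motors, and each fibre type is named for the one it holds. Myh1, the chain of fast IIx fibres, had a level of 12.42 on the null-labelled trachea array, against 5.52 on the WT trachea array, with 5.53 on the null-labelled oviduct array and 5.47 on the WT oviduct array. It was at least 86.4-fold higher in trachea, and 3 of its 4 values were below background. Myh4, the chain of the fastest IIb fibres, stood at 10.86 on the null-labelled trachea array and 5.69 on the WT trachea array, at least 29.4-fold higher, with 5.67 and 5.61 on the null-labelled and WT oviduct arrays. Myh2, the chain of fast oxidative IIa fibres, stood at 9.77 and 5.71 on the null-labelled and WT trachea arrays, at least 13.8-fold higher, and at 5.95 and 5.82 on the null-labelled and WT oviduct arrays. Each fast chain thus exceeded the 95th percentile of the negative controls on 1 array of the 4.

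Both developmental chains followed in the same direction with different sizes. Myh8, the perinatal chain, stood at 12.02 on the null-labelled trachea array and 5.38 on the WT trachea array, at least 65.6-fold higher, with 5.47 and 5.43 on the null-labelled and WT oviduct arrays. Myh3, the embryonic chain, stood at 7.38 and 5.53 on the null-labelled and WT trachea arrays, at least 2.62-fold higher, and at 5.83 and 5.61 on the null-labelled and WT oviduct arrays. Its level on the brightest array stayed under the 95th percentile of the negative controls. Myh7, the chain of slow fibres that ventricular heart muscle uses too, went the other way: 6.40 on the null-labelled trachea array against 7.48 on the WT trachea array, 2.12-fold lower, with 6.13 and 6.03 on the null-labelled and WT oviduct arrays. Myh7 likewise stayed under the 95th percentile of the negative controls on every array. In the RefSeq gene table Myh3, Myh2, Myh1, Myh4 and Myh8 follow each other on chromosome 11 with 0 protein-coding genes between neighbours, while Myh7 lies on chromosome 14. The transcripts of the clustered chains are closely alike, probe sequences were not used here, and how far their probe sets read each other's RNA was not tested.

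The other thick filament genes had differences of 3.93 to 5.23 in trachea with levels below background raised to it. Mylpf, the fast regulatory light chain, stood at 9.92 on the null-labelled trachea array, against 5.72 on the WT trachea array, and Myl1, the fast essential light chain, at 11.40 against 7.31. Myl1 thus had signal above background on the WT trachea array, where Mylpf lay below it. Mybpc2, the fast form of myosin-binding protein C, stood at 11.14 on the null-labelled trachea array and 6.22 on the WT trachea array, 30.3-fold higher. Mybpc1, the form named for slow fibres and known from fast fibres too, stood at 11.22 and 5.52 on the null-labelled and WT trachea arrays, at least 37.6-fold higher. It had 7.62 and 7.55 on the null-labelled and WT oviduct arrays, so that the WT trachea array was the lowest of the 4 for this gene.

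Thin filament genes separated by fibre class. Acta1, skeletal alpha-actin, stood at 12.67 on the null-labelled trachea array and 8.24 on the WT trachea array, 21.5-fold higher, and at 8.07 and 7.98 on the null-labelled and WT oviduct arrays. Neb, the giant protein that runs along the thin filament, stood at 12.37 and 5.75 on the null-labelled and WT trachea arrays, at least 83.6-fold higher. Neb had 5.57 on the null-labelled oviduct array and 6.02 on the WT oviduct array, the first of them below background. Troponin, the calcium switch, has a fast and a slow or cardiac gene for each subunit. The fast troponins were all higher in trachea: Tnnt3 (troponin T) at 12.46 on the null-labelled array against 8.01 on the WT array, Tnnc2 (troponin C) at 11.45 against 6.38, and Tnni2 (troponin I) at 10.04 against 6.93, which are 21.8-fold, 33.5-fold and 8.63-fold.

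None of the slow troponins was 2-fold higher, and each stayed under the 95th percentile of the negative controls on every array. Tnnt1, slow troponin T, stood at 7.23 on the null-labelled trachea array and 6.38 on the WT trachea array, a difference of 0.85. Tnni1, slow troponin I, stood at 7.47 and 6.90 on the null-labelled and WT trachea arrays, a difference of 0.57. Tnnc1, the troponin C that slow fibres share with the heart, stood at 6.39 on the null-labelled trachea array and 7.74 on the WT trachea array, 2.55-fold lower, with 6.67 and 6.34 on the null-labelled and WT oviduct arrays. In the RefSeq table the genes of fast troponin I and T, Tnni2 and Tnnt3, lie on chromosome 7 with 1 protein-coding gene between them, and both were higher.

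By fibre class, 14 of 14 fast genes were at least 2-fold higher in trachea, as were 2 of 2 developmental genes. The fast genes had a median difference of 4.64, from 3.11 to 6.53 with levels below background raised to it. Both developmental genes, the fast genes Myh1, Myh2, Myh4 and Mylpf and the slow gene Mybpc1 passed the level filter through the null-labelled array alone. Of 5 slow genes 1, Mybpc1, was at least 2-fold higher and 2, Myh7 and Tnnc1, were at least 2-fold lower (median 0.57). All 14 fast genes exceeded the 95th percentile of the negative controls on the null-labelled trachea array, as did Myh8 but not Myh3. Of the slow genes only Mybpc1 did so, and the others stayed under it on every array. The slow and fast medians are descriptions of 2 arrays and the difference between the classes was not tested. Outside the 34, Myl3, the light chain of slow and ventricular muscle, stood at 10.62 on the null-labelled trachea array and 6.53 on the WT trachea array, a difference of 4.09, whereas Myl2, its regulatory partner in the same muscles, was below background on both (5.39 and 5.32). Among other genes used by slow or heart muscle, Tpm3 differed by -0.65, Atp2a2 by -0.44, Casq2 by 0.52 and Myoz2 by 2.09. These genes, Myl3 and Myl2 are exceptions to the naming rule given below. The slow genes thus did not move as 1 group.

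All 7 genes of the Z-disc and of titin were at least 2-fold higher in trachea, with a median difference of 4.83. Myot, myotilin of the Z-disc, stood at 11.51 on the null-labelled trachea array and 4.59 on the WT trachea array, at least 45.9-fold higher, and at 5.03 and 4.997 on the null-labelled and WT oviduct arrays. Ttn, titin, the spring from Z-disc to the middle of the sarcomere, stood at 12.33 and 7.24 on the null-labelled and WT trachea arrays, 34.1-fold higher, and at 5.26 and 5.21 on the null-labelled and WT oviduct arrays. Titin was therefore below background on both oviduct arrays and above it on both trachea arrays. Actn3, the alpha-actinin of fast fibres, stood at 11.65 on the null-labelled and 6.77 on the WT trachea array, a difference of 4.88. Actn2, the alpha-actinin of all fibres and of heart, stood at 11.98 on the null-labelled and 8.20 on the WT trachea array, a difference of 3.78. On the WT trachea array both were above the negative-control median. Myoz1, a calcineurin-binding Z-disc protein of fast fibres, stood at 11.08 on the null-labelled and 6.25 on the WT trachea array, a difference of 4.83. Ldb3, a PDZ-LIM protein of the Z-disc, stood at 11.61 on the null-labelled and 8.31 on the WT trachea array, a difference of 3.30, and Tcap, the titin cap, at 9.99 on the null-labelled and 7.51 on the WT trachea array, a difference of 2.48.

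Of the calcium genes 5 of 5 were at least 2-fold higher in trachea, with differences of 3.98 to 6.53. Atp2a1, the fast-fibre calcium pump of the sarcoplasmic reticulum, stood at 12.97 on the null-labelled trachea array and 6.44 on the WT trachea array, 92.2-fold higher (a difference of 6.53, or 4.10 with the WT level raised to the 95th percentile of the negative controls), and at 6.43 and 6.42 on the null-labelled and WT oviduct arrays. Ryr1, the calcium release channel, stood at 11.33 and 6.35 on the null-labelled and WT trachea arrays, 31.4-fold higher. Cacna1s, the voltage sensor that opens it, stood at 10.19 and 6.02 on the null-labelled and WT trachea arrays, 17.9-fold higher. Casq1, the calcium store of the reticulum, stood at 11.08 on the null-labelled and 7.11 on the WT trachea array, a difference of 3.98. Pvalb, the calcium buffer parvalbumin of fast fibres, stood at 10.15 on the null-labelled and 6.12 on the WT trachea array, a difference of 4.03. Only Casq1 of these 5 was at least 2-fold higher on the WT trachea array than on the WT oviduct array, by 1.12.

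Genes of energy supply were higher too, from a WT trachea signal clear of the negative-control median. Ckm, muscle creatine kinase, stood at 12.66 on the null-labelled trachea array and 8.14 on the WT trachea array, 23.0-fold higher. Eno3, muscle enolase, stood at 11.71 and 8.75 on the null-labelled and WT trachea arrays, 7.77-fold higher, and Mb, myoglobin of oxidative and heart muscle, was 3.99-fold higher, with 7.01 and 6.77 on the null-labelled and WT oviduct arrays. Myod1, the transcription factor of the muscle lineage, stood at 8.01 on the null-labelled trachea array and 6.78 on the WT trachea array, 2.35-fold higher, with 6.96 and 6.72 on the null-labelled and WT oviduct arrays. Its trachea difference of 1.24 was the smallest among the 30 genes that were 2-fold higher, and its signal stayed under the 95th percentile of the negative controls on every array.

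Promoter sequences from RefSeq (build GRCm38.p6) were matched for 26 of the 34 genes, as the 250 bases before the first listed start, and the genes without an entry were Neb, Tnnt3, Tnni2, Actn3, Myot, Myoz1, Tcap and Myod1. They are shown for 3 genes that were far higher on the null-labelled trachea array (Acta1, Atp2a1 and Myh1) and for both that were lower (Myh7 and Tnnc1). Capitals mark the E-box CANNTG, which myogenic factors such as MyoD can bind, the CArG box of serum response factor and TATAAA on either strand.
Acta1 (chr8:123894776-123895025, minus strand): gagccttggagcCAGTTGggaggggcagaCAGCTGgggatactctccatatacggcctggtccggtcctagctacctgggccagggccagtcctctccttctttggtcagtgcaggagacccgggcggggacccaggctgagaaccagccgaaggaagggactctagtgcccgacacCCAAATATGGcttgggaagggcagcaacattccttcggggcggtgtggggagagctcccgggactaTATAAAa
Atp2a1 (chr7:126463074-126463323, minus strand): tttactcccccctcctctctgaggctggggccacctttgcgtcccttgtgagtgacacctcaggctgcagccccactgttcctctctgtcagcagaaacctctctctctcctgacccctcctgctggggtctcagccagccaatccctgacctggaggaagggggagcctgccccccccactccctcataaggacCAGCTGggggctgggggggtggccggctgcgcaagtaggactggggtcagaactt
Myh1 (chr11:67199852-67200101, plus strand): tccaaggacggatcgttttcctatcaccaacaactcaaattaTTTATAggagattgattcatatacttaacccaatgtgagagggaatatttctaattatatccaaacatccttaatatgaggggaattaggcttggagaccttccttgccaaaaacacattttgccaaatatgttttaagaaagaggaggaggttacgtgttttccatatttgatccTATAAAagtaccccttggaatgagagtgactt
Myh7 (chr14:54994627-54994876, minus strand): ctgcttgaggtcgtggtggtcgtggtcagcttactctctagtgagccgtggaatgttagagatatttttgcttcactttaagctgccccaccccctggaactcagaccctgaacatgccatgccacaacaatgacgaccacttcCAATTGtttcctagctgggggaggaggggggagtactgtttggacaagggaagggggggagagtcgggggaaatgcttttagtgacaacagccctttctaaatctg
Tnnc1 (chr14:31208062-31208311, plus strand): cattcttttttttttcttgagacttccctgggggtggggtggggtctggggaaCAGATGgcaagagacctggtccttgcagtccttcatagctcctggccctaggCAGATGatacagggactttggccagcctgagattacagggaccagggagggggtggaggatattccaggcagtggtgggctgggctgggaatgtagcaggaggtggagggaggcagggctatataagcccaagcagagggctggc
Both strands were searched, and CAGCTG, the E-box form preferred by MyoD, is a subset of the general E-box. It was present in 10 of the 26 muscle promoters (38.5%), among them Acta1 and Atp2a1, and in 12.8% of all 27025 promoters of the same length. CANNTG was in 21 of 26 (80.8%) against 66.0% of all, TATAAA in 7 (26.9%) against 13.0% and the CArG box in 3 (11.5%), those of Myh4, Acta1 and Ldb3, against 1.40%. Myh7 and Tnnc1 held the general E-box but not the MyoD form, and Myh1 held neither. Other genes at least 2-fold higher in trachea lacked the MyoD form too: Myh2, Myh3, Myh8, Mybpc2, Tnnc2, Actn2, Ttn, Ldb3, Ryr1, Pvalb, Mb and Eno3. Tnni1, which was not past 2-fold, held it. A match describes letters in this window and no binding.

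In oviduct 0 of the 34 genes were at least 2-fold higher or lower. Of the 19602 genes at or above the array median on at least 1 oviduct array 3.55% were, 0.806% upward and 2.74% downward. For so few genes a count of 0 lies near that share and is no result about them. All 34 also lay under the 95th percentile of the negative controls on both oviduct arrays. With levels below background raised to it, differences ran from -0.28 (Ryr1) to 0.34 (Actn2). Measured differences had a median of 0.06 over the 34 and 0.05 over all genes that passed. Of the 34 genes 25 passed the filter in oviduct, and the 9 that did not were Myh1, Myh2, Myh3, Myh4, Myh8, Mylpf, Myl1, Ttn and Myot. On the null-labelled oviduct array 8 of the 34 lay at or below the negative-control median, against 7 on the WT oviduct array. Among the fast myosins Myh1 and Myh4 were below it on both arrays, and Myh2, at 5.95 and 5.82, lay just above.

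The oviduct levels not yet given are, for each gene, those of the null-labelled array and then of the WT array. In the thick filament they were Mylpf at 5.74 and 5.69, Myl1 at 5.65 and 5.80 and Mybpc2 at 6.85 and 6.89. Of the fast troponins Tnnt3 at 6.26 and 6.32, Tnni2 at 6.52 and 6.46 and Tnnc2 at 6.72 and 6.40 were measured, and of the slow ones Tnnt1 at 6.65 and 6.64 and Tnni1 at 7.07 and 6.86. Fast and slow troponins alike differed by at most 0.33 here. Of the Z-disc genes Actn2, at 7.08 and 6.74, had the largest difference above 0 of the 34, and the others stood with Actn3 at 7.22 and 7.19, Myoz1 at 6.33 and 6.30, Ldb3 at 7.11 and 6.95 and Tcap at 7.07 and 7.08. Calcium genes followed with Ryr1 at 6.42 and 6.71, Cacna1s at 6.14 and 6.06, Casq1 at 6.22 and 5.99 and Pvalb at 6.46 and 6.15, and energy genes with Ckm at 7.15 and 7.15 and Eno3 at 7.54 and 7.33. Ryr1, lower by 0.28 on the null-labelled array, was the only calcium gene below its WT level.

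WT trachea was also set against WT oviduct, and null-labelled trachea against null-labelled oviduct, to see where muscle signal sat under each label; tissue, sex and age differ together in both. On the WT arrays 10 of the 34 genes were at least 2-fold higher in trachea (6.52% of 19867 genes that passed) and 1, Mybpc1, was lower (4.65%). Of the 34 genes 27 passed the level filter here, and all 34 stayed under the 95th percentile of the negative controls on both arrays. The 10 were Ttn (2.03), Tnnt3 (1.69), Myl1 (1.51), Myh7 (1.46), Actn2 (1.46), Eno3 (1.42), Tnnc1 (1.40), Ldb3 (1.36), Mb (1.23) and Casq1 (1.12). Values are the WT trachea level minus the WT oviduct level, as measured. Ttn was below background on the WT oviduct array, so that its fold is at least 2.77 and its place in this order is not known. Of the 10, 8 were higher still on the null-labelled trachea array, while Myh7 and Tnnc1 were lower there. On the null-labelled arrays 30 of the 34 were at least 2-fold higher in trachea (6.82% of 19986 genes) and 0 were lower (6.09%), with a median of 4.46 as measured. Myh7 differed by 0.27 and Tnnc1 by -0.28 between those arrays, so that both stood near their oviduct level in null-labelled trachea.

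**Figure D3:**
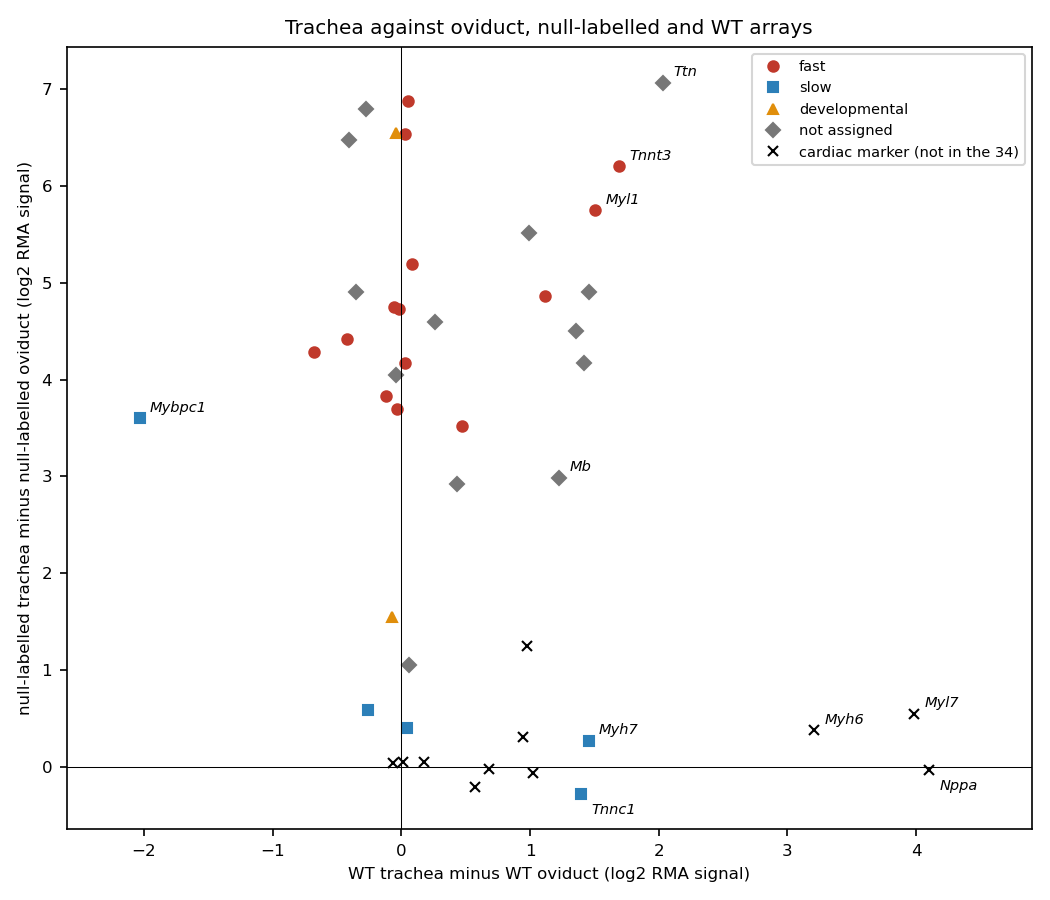
Vertical axis, trachea minus oviduct on the null-labelled arrays; horizontal axis, trachea minus oviduct on the WT arrays, both in log2 RMA signal and sharing no array. Each point is 1 of the 34 muscle genes by fibre class, and crosses are 11 cardiac markers. Of the 34 genes 30 lie above 1 on the vertical axis and 10 to the right of 1 on the horizontal axis, whereas Myh7, Tnnc1 and the cardiac genes Nppa, Myl7 and Myh6 lie near 0 on the vertical axis and to the right on the horizontal one.

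Cardiac muscle genes were read beside these because the heart shares Myh7, Tnnc1, Actn2, Ttn and Mb with skeletal muscle. Of 11 cardiac markers measured, 5 were at least 2-fold lower on the null-labelled trachea array and 0 were higher (median -0.98). Nppa, the atrial natriuretic peptide, stood at 5.77 on the null-labelled trachea array and 9.95 on the WT trachea array, 18.1-fold lower, and at 5.80 and 5.85 on the null-labelled and WT oviduct arrays. Myl7, the atrial light chain, stood at 7.47 and 10.83 on the null-labelled and WT trachea arrays, 10.2-fold lower, and Myh6, the alpha cardiac chain, at 6.73 and 9.42, 6.41-fold lower. The list's signal summed on the linear scale was 1767 on the null-labelled trachea array and 5856 on the WT trachea array, against 1545 and 1670 on the null-labelled and WT oviduct arrays. Nppb was below background on both trachea arrays, and Nkx2-5, the cardiac transcription factor, stood at 7.63 and 7.61. The part of these genes in the Myh7 and Tnnc1 values was not tested.

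Other genes of the muscle pathway were mostly higher in trachea too. Over 7 lists with 102 measured genes, 74 were at least 2-fold higher and 2 at least 2-fold lower in trachea (73 and 2 with levels below background raised to it; median 1.78 so, 1.82 as measured), and 0 reached 2-fold in oviduct (median 0.13). Among sarcomere and Z-disc genes 23 of 27 were higher, among them Klhl41, a stabiliser of nebulin (at least 28.8-fold), Nrap (21.4-fold) and Xirp2 (at least 11.1-fold). Of excitation-contraction coupling genes 15 of 19 were higher, among them Cacng1, a subunit of the voltage sensor (at least 32.2-fold), Trdn, triadin (at least 11.6-fold), and Jph1, junctophilin (13.8-fold). Metabolic genes of muscle were higher in 15 of 18 and lower in 1, with Apobec2 34.1-fold, Pygm, muscle glycogen phosphorylase, 25.5-fold and Ampd1 at least 8.57-fold higher. The 1 lower gene was Gpd1 (a difference of -1.22), named here after its value was seen.

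Lists of the membrane, the nerve contact and the lineage had median differences of 1.40, 1.25 and 0.66. Dystrophin complex and sarcolemma genes were higher in 9 of 10, with Capn3 6.41-fold, Sgca 6.03-fold and Dysf 3.62-fold higher. Neuromuscular junction genes were higher in 6 of 9, with Musk, the receptor kinase of the junction, at least 10.2-fold, Chrna1 at least 6.18-fold and Chrnb1 3.87-fold higher. Chrne, the adult acetylcholine receptor subunit, differed by 1.02 and Chrng, the fetal one, by 0.46. Among myogenic regulators and satellite cell genes 5 of 14 were higher (4 with levels below background raised to it), with Mstn, myostatin, at least 10.2-fold, Myf6, the factor of mature fibres, at least 11.0-fold and Mymk, the fusion protein myomaker, 4.16-fold higher. Mymk stood at 8.15 and 6.09 on the null-labelled and WT trachea arrays, and at 7.76 and 7.50 on the null-labelled and WT oviduct arrays. The WT trachea array was thus the lowest for Mymk, and its signal stayed under the 95th percentile of the negative controls on every array. Pax7, the satellite cell factor, differed by 0.69 and Myog by 1.60. Of 5 further sarcomeric and related myosin heavy chains, Myh13, the chain of eye and laryngeal muscle, was at least 2.06-fold higher, Myh6 was lower by the cardiac value above, and Myh14 differed by -0.45.

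Markers of other tissues moved between the same 2 trachea arrays. Squamous epithelium genes were higher in 9 of 11 (median difference 5.01, or 3.53 with levels below background raised to it), with Serpinb3a at least 28.3-fold, Tgm3 at least 67.2-fold and Krtdap at least 61.2-fold higher, and their summed linear signal was 32976 on the null-labelled trachea array and 816 on the WT trachea array. Ivl and Crnn, which also define this epithelium, differed by 0.14 and 0.32 from levels below background on the WT array. Basal cell genes were higher in 4 of 7 (median 1.81), and the largest differences were 3.78 for Krt14, 3.02 for Krt5 and 2.11 for Trp63, with a summed signal of 12310 on the null-labelled and 2749 on the WT trachea array. For the 34 muscle genes the summed signal was 90437 and 4658 on the null-labelled and WT trachea arrays, and 3366 and 3155 on the null-labelled and WT oviduct arrays. The part of other tissue in the muscle result was not tested.

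Lower on the null-labelled trachea array were the genes that define the airway lining and several neighbours. Airway secretory genes were lower in 9 of 9 (median -5.45), with Bpifa1 125-fold, Scgb3a1 55.5-fold and Reg3g at least 37.4-fold lower, and a summed signal of 4025 on the null-labelled array against 48081 on the WT one. Multiciliated cell genes were lower in 10 of 10 (median -3.79, or -3.21 with levels below background raised to it), with Sntn at least 12.7-fold, Dnah6 at least 12.6-fold and Dnah12 at least 7.28-fold lower, a summed signal of 401 against 5278 on the WT array, and 9 of the 10 below background on the null-labelled array. Adipocyte genes were lower in 6 of 7 (median -2.50), with Ucp1 at least 25.2-fold, Cidea 6.55-fold and Fabp4 6.17-fold lower and a summed signal of 802 on the null-labelled and 5663 on the WT array. Lymphocyte genes were lower in 6 of 7 (median -3.49), with Cd79b 20.5-fold and Cd3e 18.8-fold lower, Ms4a1 below background on the null-labelled array, and a summed signal of 619 on the null-labelled and 5497 on the WT array.

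Smooth muscle, the muscle known from the tracheal wall, went opposite to the skeletal genes. Of its 8 markers 4 were lower and 0 higher (median -1.07), with Cnn1, calponin, at 8.71 on the null-labelled trachea array and 10.81 on the WT trachea array, Myh11, the smooth muscle heavy chain, at 9.24 and 10.77, and Myocd, its transcriptional activator, at 6.16 and 7.50. Their summed signal was 5000 and 9560 on the null-labelled and WT trachea arrays, and 8441 and 7870 on the null-labelled and WT oviduct arrays. Cartilage genes had 2 of 9 lower (median 0.04), with Chad 22.2-fold and Acan 2.39-fold lower. Col2a1, the main collagen of cartilage, stood at 7.43 and 7.54 on the null-labelled and WT trachea arrays, and at 7.33 and 7.21 on the null-labelled and WT oviduct arrays, which does not set the trachea apart. Thyroid genes had 0 of 6 past 2-fold (median -0.01, Foxe1 0.82, Slc5a5 0.26), Schwann cell genes 0 of 5 (median 0.48, Sox10 0.92) and fibroblast genes 1 of 6 higher (median 0.54, Lum 1.02, Dpt 0.84). In oviduct, beside the multiciliated genes, 5 marker genes passed 2-fold. Tnni3 (cardiac), Sec14l3 (listed as airway secretory) and Cidea (adipocyte) were lower, and Scgb3a1 (airway secretory) and Tshr (thyroid) were higher. Sec14l3 stood at 6.00 and 9.45 on the null-labelled and WT oviduct arrays. Its difference of -3.46 there resembles those of the multiciliated genes, so that its place in the airway secretory list is not certain.

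**Figure D4:**
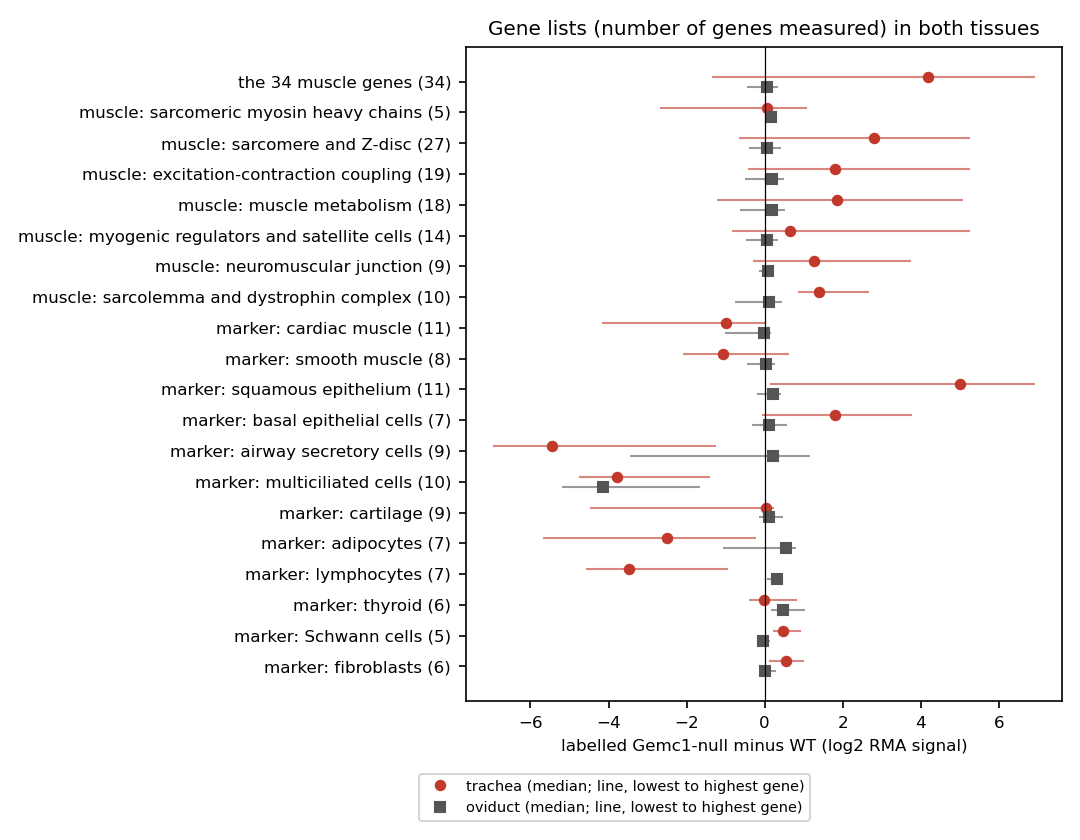
Difference between the null-labelled array and the WT array, in log2 RMA signal (horizontal axis), for the 34 muscle genes, 7 further muscle lists and 12 marker lists, with the number of genes measured in brackets. Points are list medians in trachea (red circles) and oviduct (grey squares), and lines run from the lowest to the highest gene, as measured, also below background. In trachea the 34 genes and the squamous list have medians above 4, the airway secretory list has one below -5, and in oviduct the multiciliated list, at -4.15, is the only one whose median is past 2-fold.

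The 4 arrays allow 1 fit with more than 1 array per genotype, which tests a genotype difference common to the tissues, with tissue as a block. In limma's moderated test, adjusted by Benjamini-Hochberg over 20876 genes, 0 of the 34 genes passed 0.05, and adjusted p-values ran from 0.829 to 0.839. At an unadjusted p under 0.05 there were also 0 of the 34, and over all genes the fit made 0 calls (0%), with 168 higher (0.805%) and 561 lower at the unadjusted level. The smallest member p was that of Myod1, at 0.12 unadjusted, with a shared difference of 0.74 (SE 0.333). The fit has 1 residual degree of freedom, and a gene that differs in 1 tissue alone puts that difference into its error.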

How the data were processed

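RNA of 4 samples was read on 1-colour Affymetrix arrays, 1 array per group, grouped by the labels' titles. The deposited table holds a log2 value per probe set that the authors made with RMA, per the submitters' processing notes; its version and settings: not given in the sources used here. They appear to be log2-transformed once more, since raising 2 to each one gave a number of 6 significant digits for 100% of values (relative tolerance 1e-09) and the values themselves did so for 0.044%. All levels here are therefore 2 raised to the deposited value.

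Of 72688 probe sets 6732 were controls, 5222 of them negative controls. Per the platform annotation, with symbols resolved through a RefSeq table (GRCm38.p6), 31086 probe sets had 1 gene, 1664 listed several genes or were unresolved, and the rest are unnamed here. They gave 30560 genes, of which 424 had several probe sets and took the one with the highest mean. A gene passed the level filter where its signal reached the array median (percentile 50) on at least 1 of the 2 arrays compared. Differences were counted at 2-fold with no test. The shared genotype effect was fitted with limma 3.58.1 in R 4.3.3, and the counting and the fit were tested on simulated data. Figures and counts were made in Python 3.11.15.

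The 34 genes and the other lists were chosen with earlier results of these data known. Named genes were the 34, the 3 largest absolute differences of each other list in trachea, and the 10 largest differences above 0 in trachea; exceptions are marked or are named as the defining genes of a list. In oviduct, other lists are given mainly by counts and medians. Oviduct levels or summed signals stand beside the trachea values of the cardiac, smooth muscle and cartilage lists. Alternatives tried were fold thresholds, level filters, probe sets, array scaling, background floors, the tissue block and a prior trend. No raw probe intensities were used here.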

Additional observations from a re-analysis of the deposited data

Results flagged for a closer look

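In 8 of the 34 genes the 2 tissues differed in sign: the trachea difference was past 2-fold and the oviduct difference, with 1 array per group, lay on the other side of 0. These are 25% of the 32 genes past 2-fold in trachea, where over all genes 45.5% of 2818 did so. With the oviduct labels turned, the counts would be 24 of 32 and 54.4%. The 2 sets are unlike in direction: 30 of the 32 were higher in trachea, whereas of the 2818 genes 1272 were higher and 1546 lower. The median oviduct difference over all genes that passed was 0.05, so that a mostly higher set tends to meet fewer opposite signs. In oviduct Gmnc was higher under the null label, which cannot decide about it, and the multiciliated genes were lower. The difference between tissues was not tested, and every oviduct difference among them is under 0.5 in size. Expressed as the trachea difference minus the oviduct difference, it was 5.26 for Ryr1 (4.97 in trachea, -0.28 in oviduct), 4.96 for Mybpc2 (4.92 and -0.04), 4.52 for Tnnt3 (4.45 and -0.07) and 2.49 for Tcap (2.48 and -0.01). It was -1.68 for Tnnc1 (-1.35 and 0.33) and -1.19 for Myh7 (-1.08 and 0.10), the only ones of the 34 that were lower in trachea. As measured it was 7.07 for Neb and 4.25 for Myl1, which rest on levels below background, on the WT trachea and null-labelled oviduct arrays for Neb and on the null-labelled oviduct array for Myl1. With those levels raised to background the oviduct differences were -0.23 for Neb and -0.013 for Myl1.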

How the results depend on the processing

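The trachea count of 30 genes at least 2-fold higher stayed between 27 and 31 under every alternative tried: thresholds of 1.5-fold and 3-fold, no level filter, a filter at percentile 75, single probe sets, both scalings and both background floors. The 2 lower genes, Myh7 and Tnnc1, became 0 at 3-fold, 1 with the negative-control medians of the arrays made equal (Myh7 no longer passing) and 0 with levels below the 95th percentile of the negative controls raised to it, a floor chosen after seeing the data. That floor took the trachea median to 2.31, by its construction, and the other alternatives left it between 4.13 and 4.42. Equal negative-control medians shifted all trachea differences by 0.24 and turned the share of higher genes among all 2-fold calls to 59.8%, against 45.1%. In oviduct the counts stayed 0 under every alternative that gives a value (all 34 genes lie under the stricter floor there), and the median of the 25 genes that passed (0.08) ranged from 0.06 to 0.08. Between WT trachea and WT oviduct the 10 higher genes became 2 at 3-fold and 0 at the stricter floor, and the 1 lower gene became 2 at 1.5-fold and 0 at that floor; the null-labelled arrays, an added comparison, gave 30 and 0. Single-gene differences kept within 1.5 times their value except for 21 of 28 trachea values at the stricter floor, all made smaller, and, in oviduct, where differences lie near 0, 12 with equal negative-control medians and 9 with the negative-control median as floor. The limma fit called 0 of the 34 genes without the tissue block and with a prior trend. Signal over background limits the bounds for 9 genes in trachea. No paired analysis of replicates was possible because each group has 1 array. The only pairing is that by tissue in the limma fit, which has 1 residual degree of freedom and none without any 1 of the arrays.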
